A study of Mus musculus with 12 samples.

Results

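Muscle progenitors of the mouse embryonic head were compared at embryonic day 9.5 (E9.5) and embryonic day 11.5 (E11.5). The comparison used the 4 arrays titled head muscle progenitors of these stages, 2 per stage, out of 12 arrays of 6 groups in the series. All groups came from ICR embryos of the genotype Myf5Cre;RosaYFP, in which Cre made from the Myf5 locus switches on yellow fluorescent protein (YFP) in cells that have expressed Myf5 and in their descendants. Head tissue was dissociated and YFP+ cells were sorted. Each sample was thus meant to hold the cells labelled by Myf5Cre in the head, whatever they have become since. Red cell transcripts were nonetheless plentiful on all 4 arrays, as given below, and there is no unlabelled sample to compare with. The other 8 arrays (head at E10.5, trunk at E9.5, E10.5 and E11.5, of the same strain and genotype) served only to estimate the spread between arrays. Whether the 2 arrays per stage stand for separate embryos, litters or pools is not stated in the labels. The p-values therefore reflect spread between arrays alone, and that spread may be technical.

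Most head muscles arise from pharyngeal and other cranial mesoderm, an unsegmented tissue that also supplies part of the heart, and not from the somites that form trunk muscle. In that tissue factors such as Tbx1, Isl1, Msc and Tcf21 act before and alongside the muscle determination genes Myf5 and Myod1. Myog then drives differentiation, in which cells leave the cell cycle, fuse, and build sarcomeres, the contractile units of muscle, and later the membrane apparatus that couples nerve signals to contraction. The question here was which transcripts differed between the head progenitors before and after these steps begin.

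Each value is the deposited signal of a probe set, a group of array probes for a transcript, in linear intensity units. The median signal was between 108.6 and 110.4 units on each of the 12 arrays, and signals below an array's median are called dim here, because they cannot be relied on as a level. Over the genes tested, the 2 arrays of E9.5 correlated with Pearson r = 0.961 and those of E11.5 with r = 0.965, against 0.916 to 0.932 between stages. These correlations are across genes, which are not independent replicates. The log2 excess of the 3′ over the 5′ probe set of Actb is a measure of RNA integrity. It was 6.0 and 5.29 on the E9.5 arrays and 5.20 and 5.71 on the E11.5 arrays. That of Gapdh was 5.37 and 5.94 at E9.5 and 5.85 and 5.58 at E11.5. The stages overlapped, but the excess was large on all 4 arrays. Probe sets far from the 3′ end may therefore read low at both stages. Myf5, the gene that drives the label, lay well above the array median on all 4 arrays.

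Of 7721 genes tested, 369 differed between the stages (limma with Benjamini-Hochberg adjustment, adjusted p below 0.05), which is 4.78% of the genes. Of these 212 were higher at E11.5 (2.75%) and 157 lower (2.03%), and 298 differed at least 2-fold by the fitted log2 value, 176 of them higher and 122 lower. The groups did not overlap in any of the 369 called genes, against 44.3% of all genes tested. The median log2 difference of all genes was 0.00. Below, "higher", "lower", "rose" and "fell" refer to E11.5 relative to E9.5 and are used only for genes past the adjusted threshold, errors after ± are standard errors of the log2 difference from the limma fit (n = 2 arrays per stage), and a fold is given as "at least" where an array of the dimmer stage was dim, with such arrays raised to the array median.

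The count of calls depended on single arrays. Leaving out 1 of the 12 arrays at a time left a stage with 1 array when a head array of E9.5 or E11.5 was dropped, and that lone array was then assumed to vary like the other groups. The count of calls was 173 without E9.5 replicate 1, 194 without E11.5 replicate 2, 226 without E11.5 replicate 1 and 325 without E9.5 replicate 2, and it lay between 308 and 395 when another array was dropped. The balance of directions moved as well: 111 genes were higher and 115 lower without E11.5 replicate 1 (49.1% higher), and 223 higher and 102 lower without E9.5 replicate 2 (68.6%), against 57.5% with all arrays. Of the 369 genes, 107 kept their call in all 12 omissions, and these are referred to as called in every omission.

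**Figure D1:**
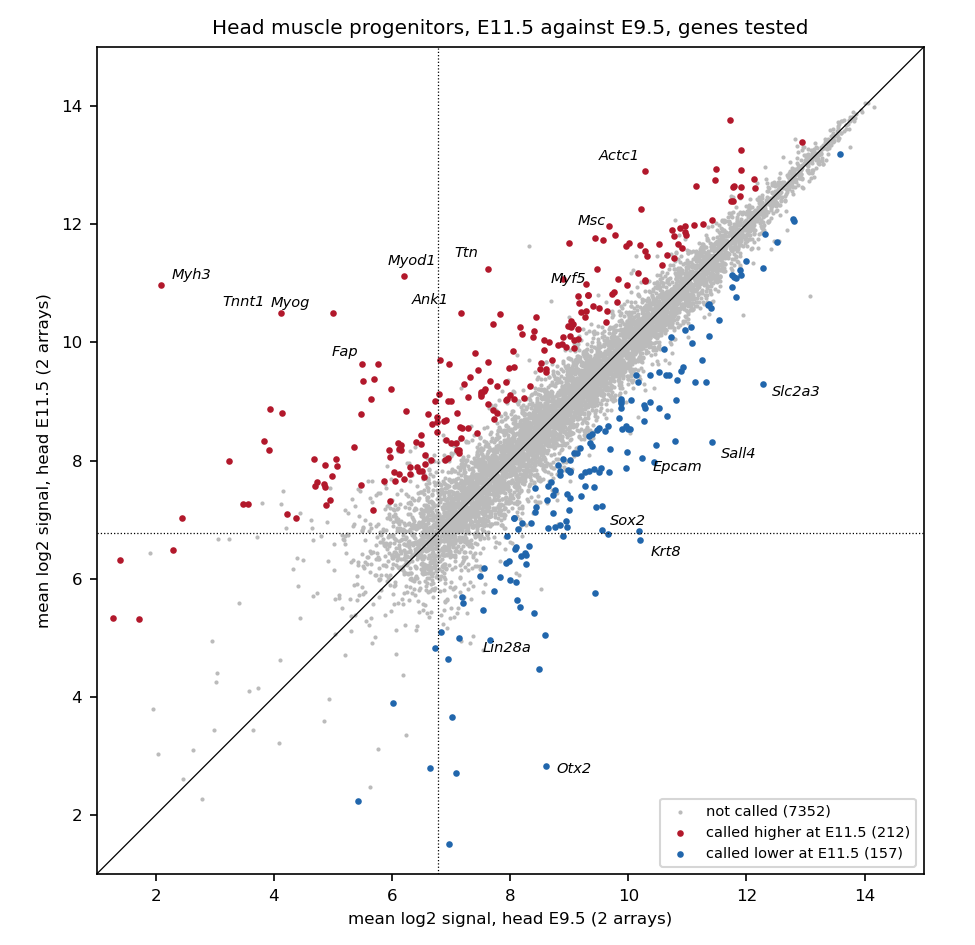
Mean log2 signal of each of the 7721 genes tested at E9.5 (horizontal) and E11.5 (vertical), with 2 arrays per stage; dotted lines mark the median signal of an array and the diagonal marks equal signal. The 212 genes higher at E11.5 (red) include Myod1, Myog, Myh3 and Tnnt1, which lay left of the dotted line at E9.5, and the 157 lower genes (blue) include Sall4, Slc2a3 and Krt8.

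The muscle determination and differentiation factors rose together. Of 21 tested myogenic regulatory factors and cofactors 3 were higher and 0 lower, against 2.75% and 2.03% of all genes, and the median log2 difference of the list was 0.31 (0.24 with dim signals raised to the array median). The 3 genes were Myf5, Myod1 and Myog, and all of them were called in every omission. Myf5 read 525 and 771 units at E9.5 and 1787 and 1772 at E11.5. It was thus on at both stages and 2.80-fold higher at the later one (log2 1.48 ± 0.21, adjusted p = 0.00165). Myod1, which commits cells to the muscle fate, read 56.9 and 96.5 at E9.5, both dim, and 2156 and 2337 at E11.5, a rise of at least 20.4-fold (log2 4.92 ± 0.30, adjusted p = 6.91e-06). Myog, the differentiation factor downstream of it, read 40.4 and 25.3 at E9.5 and 1581 and 1318 at E11.5, at least 13.1-fold higher (log2 5.50 ± 0.36, adjusted p = 8.7e-06). Neither Myod1 nor Myog was above the array median on any E9.5 array, whereas both were far above it on both E11.5 arrays.

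The other 18 tested members of that list did not pass, with log2 differences from −1.12 to 4.54. Mef2c, which acts with the myogenic factors on muscle genes, read 591 and 740 at E9.5 and 1507 and 1058 at E11.5 (log2 0.93 ± 0.29, adjusted p = 0.104). Pax7, a gene of muscle stem cells, read 62.6 and 29.4 at E9.5 and 126 and 266 at E11.5 (log2 2.09, adjusted p = 0.0665). In both genes the stages did not overlap, but the difference did not exceed the estimated spread by enough to pass. Pax3, the trunk counterpart in the control of muscle progenitors, read 330 and 150 at E9.5 and 306 and 376 at E11.5, with overlapping stages (log2 0.60, adjusted p = 0.388). The muscle regulators Srf, Mef2a and Mef2d had differences of 0.10, 0.36 and 0.24. Myf6 did not reach the filter on dim probe sets and was not tested.

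Genes of the sarcomere rose widely. Across 4 lists of muscle structure genes (myosins, thin filament genes, Z-disc and titin genes, and genes of excitation and calcium handling) 55 different genes were tested, of which 24 were higher and 1 was lower, and 46 had a positive difference. The median log2 difference of the 55 genes was 1.46, and 0.47 with dim signals raised to the array median, against 0.00 for all genes. Of the 24 higher genes, 18 were dim on both E9.5 arrays and 20 were above the median on both E11.5 arrays. The lists had 23, 23, 32 and 34 entries, of which 11, 14, 15 and 15 were tested. A gene dim on both arrays of a stage entered the test only through arrays of other groups, so the filter could favour its direction of change. This holds for every list here, and the counts beside all genes are description. Most of these calls rested on all arrays being present: 4 of the 25 were called in every omission.

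Among sarcomeric myosins and their binding proteins, 5 of 11 tested genes rose and 0 fell (median log2 1.98, or 0.47 with dim signals raised). Embryonic myosin heavy chain Myh3, the first fast myosin of developing muscle, read 5.29 and 3.46 at E9.5 and 2381 and 1678 at E11.5. It went from the lowest part of the signal range to far above the median, at least 18.2-fold (log2 8.87 ± 1.14, adjusted p = 0.000972). The adult fast heavy chain Myh1 was at least 1.81-fold higher, the fast regulatory light chain Mylpf at least 2.22-fold and the essential light chain Myl1 at least 1.40-fold (adjusted p 0.00581 to 0.00755), all from dim signals at E9.5. The myosin binding protein gene Mybph read 2.50 and 2.74 at E9.5 and 212 and 30.3 at E11.5, so that only E11.5 replicate 1 was above the median. Slow myosin Myh7 read 646 and 274 at E9.5 and 241 and 182 at E11.5 and did not pass (log2 −1.01, adjusted p = 0.326). Without E11.5 replicate 1 only Myh3 kept its call, and Mybph then had an adjusted p of 0.237. The adjusted p of Mybph was also 0.076 without E9.5 replicate 1 and 0.0523 to 0.0583 without 1 of 3 trunk arrays.

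The list of thin filament genes gave the largest share of calls of any list, 10 higher and 0 lower of 14 tested. It also holds the Z-disc genes Actn2 and Actn3 and smooth muscle actin Acta2, which count among the 10. The median log2 difference was 1.89, or 1.21 with dim signals raised. Cardiac alpha-actin Actc1, which is also the main sarcomeric actin of embryonic skeletal muscle, read 1176 and 1321 at E9.5 and 7883 and 7491 at E11.5, a 6.16-fold rise from a level already well above the median (log2 2.62 ± 0.41, adjusted p = 0.00359). Slow troponin T Tnnt1 read 6.17 and 49.0 at E9.5 and 1927 and 1093 at E11.5, at least 13.2-fold higher (log2 6.38 ± 0.71, adjusted p = 0.00042). These 2 genes were called in every omission. The other 8 were the Z-disc crosslinkers Actn2 (at least 4.81-fold) and Actn3 (at least 2.71-fold), skeletal actin Acta1 (at least 2.79-fold), smooth muscle actin Acta2 (2.75-fold), the troponins Tnnc1, Tnnc2 and Tnni1 (at least 1.99-, 1.30- and 1.46-fold) and beta-tropomyosin Tpm2 (1.72-fold), with adjusted p from 0.0166 to 0.0499. All 8 lost their call without E11.5 replicate 1 (adjusted p up to 0.271), and Actn3 had an adjusted p of 0.305 without E9.5 replicate 1. Some probe sets, with names ending in _s_at, _x_at or _a_at, can detect more than 1 transcript, and leaving these out also ended the call of Tpm2 (adjusted p = 0.199). Troponin T of heart and early skeletal muscle, Tnnt2, read 114 and 62.6 at E9.5 and 370 and 246 at E11.5 without passing (log2 1.84, adjusted p = 0.063).

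Titin, the giant spring protein that spans the sarcomere (Ttn), read 216 and 180 at E9.5 and 3563 and 1646 at E11.5, a 12.3-fold rise (log2 3.62 ± 0.46, adjusted p = 0.000972) and the largest measured fold among all called genes with no dim head array. It was called in every omission. Of the 15 tested Z-disc and scaffold genes 3 were higher and 1 lower (median log2 0.61, or 0.16 with dim signals raised). The other higher genes were Myot, an actin-bundling Z-disc protein (at least 1.32-fold, adjusted p = 0.0114), and the actin regulator Cap2 (at least 2.31-fold, adjusted p = 0.0362). The lower gene was Fhl1, a LIM-domain protein, which read 6417 and 5402 at E9.5 and 2988 and 3702 at E11.5 (1.77-fold lower, adjusted p = 0.00704). Myot, Cap2 and Fhl1 lost their calls without E11.5 replicate 1 (adjusted p 0.117, 0.152 and 0.0559). Cap2 lost it also without E9.5 replicate 2 (0.188) and Fhl1 without E9.5 replicate 1 (0.072), and Cap2 when the probe sets of a gene were averaged (adjusted p = 0.174).

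Some genes of the muscle membrane, of calcium release and of the neuromuscular junction also rose, from dim signals. Of 15 tested, 6 were higher and 0 lower (median log2 1.47, or 0.47 with dim signals raised), and 11 of the 15 were dim on both E9.5 arrays. The calcium release channel of skeletal muscle, Ryr1, read 6.20 and 14.3 at E9.5 and 257 and 254 at E11.5, at least 2.32-fold higher (log2 4.76 ± 0.78, adjusted p = 0.00438). Chrna1, the alpha subunit of the muscle acetylcholine receptor, read 5.93 and 34.2 at E9.5 and 334 and 311 at E11.5, at least 2.93-fold higher (log2 4.50 ± 0.83, adjusted p = 0.00899). The beta subunit Chrnb1 and the embryonic gamma subunit Chrng were at least 1.76- and 1.38-fold higher (adjusted p = 0.00913 and 0.0137), and all 3 are subunits of the embryonic form of the receptor. The calcium store protein Casq2 and the calcium pump Atp2a1 were at least 1.52- and 1.99-fold higher (adjusted p = 0.00498 and 0.0394). None of the 6 was called in every omission. Without E11.5 replicate 1 all 6 lost their call (adjusted p 0.0543 to 0.237), and without E11.5 replicate 2 only 2 kept it.

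**Figure D2:**
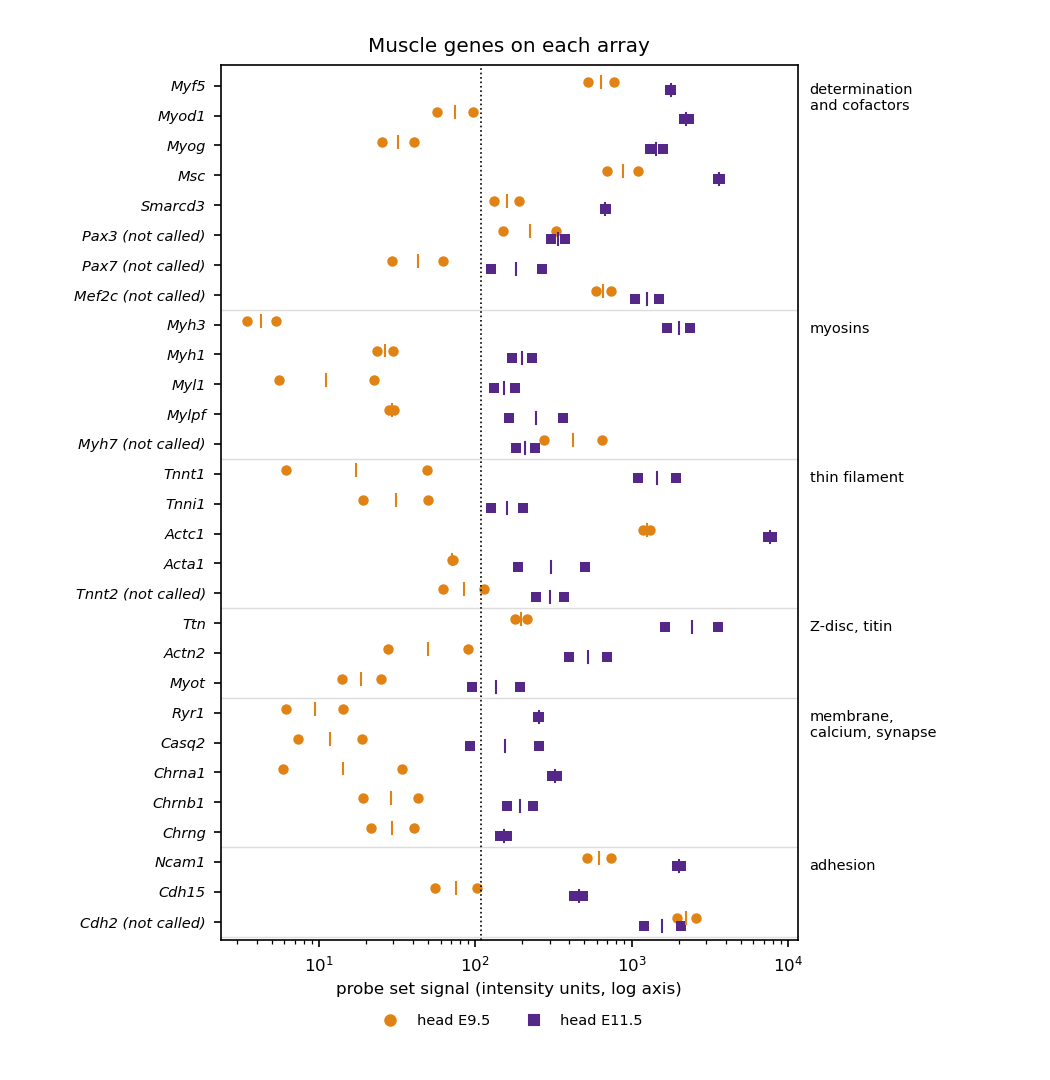
Probe set signal (log axis, intensity units) of muscle genes on each E9.5 array (circles) and E11.5 array (squares), with a short line at the geometric mean of each stage and a dotted line at the median signal of an array. Myod1, Myog, Myh3, Tnnt1 and the receptor subunits lay left of the dotted line at E9.5 and right of it at E11.5, whereas Myf5, Msc, Actc1 and Ttn were right of it at both stages; genes marked "not called" did not pass the adjusted threshold.

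The promoters of the muscle genes that rose are shown because they moved together and because Myod1 and Myog, which rose with them, bind E-boxes. An E-box is the sequence CANNTG, where N is any base, and CAGCTG is a form of it that these factors are known to prefer. The MEF2 site and the CArG box are the binding sites of MEF2 factors and of serum response factor. All motifs were sought on both strands in the 250 bases before each gene's start, with sequences from RefSeq (build GRCm38.p6), and 22 of the 24 higher muscle structure genes were matched, with 23 windows. CAGCTG stood in 11 of these 23 windows (47.8%), against 11.2% of 152 windows of genes that fell, 11.3% of 8192 windows of all genes tested and 13% of the 32851 windows of the whole table. The general E-box, which includes CAGCTG, stood in 87% of the muscle windows. Its share was 63.8% in genes that fell, 56.2% in genes tested and 66.2% in the whole table. A MEF2 site stood in 3 of the 23 windows (13%), against 1.32% in genes that fell, 1.53% in genes tested and 2.92% in the whole table. A CArG box stood in 2 (8.7%), against 3.95%, 1.26% and 1.47%, in the same order. All 11 windows with CAGCTG belonged to genes that lost their call in at least 1 omission. Myh3, Tnnt1, Actc1 and Ttn, the muscle structure genes called in every omission, had no CAGCTG in their windows. Chrna1 and Chrng, printed below, were the only muscle structure genes with 2 CAGCTG in a window. These shares describe the letters in these windows and were not tested. A match does not show that a factor binds there, and a window without a match says only that these letters are not in it.

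The 200 bases before the start are shown for Myog and for 4 of the higher muscle structure genes, chosen as examples with and without E-boxes, with E-boxes in capitals except for Actc1, where the capitals mark a CArG box. They are Myog (chr1:134289804-134290003, plus strand), Chrna1 (chr2:73580339-73580538, minus strand), Chrng (chr1:87205611-87205810, plus strand), Mylpf (chr7:127211408-127211607, plus strand) and Actc1 (chr2:114052876-114053075, minus strand), each read 5′ to 3′ on the strand of the gene.
Myog: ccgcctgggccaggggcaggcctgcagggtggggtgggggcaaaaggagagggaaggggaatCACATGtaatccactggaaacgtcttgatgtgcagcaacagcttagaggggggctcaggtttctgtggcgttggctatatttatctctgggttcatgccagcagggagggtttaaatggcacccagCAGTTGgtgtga
Chrna1: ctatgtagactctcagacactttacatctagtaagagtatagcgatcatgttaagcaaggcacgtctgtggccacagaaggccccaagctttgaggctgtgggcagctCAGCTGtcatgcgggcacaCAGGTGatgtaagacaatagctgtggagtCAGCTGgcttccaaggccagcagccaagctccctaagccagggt
Chrng: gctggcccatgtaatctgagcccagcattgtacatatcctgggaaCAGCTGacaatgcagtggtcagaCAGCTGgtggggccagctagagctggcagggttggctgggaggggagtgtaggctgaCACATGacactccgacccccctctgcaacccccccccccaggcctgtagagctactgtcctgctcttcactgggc
Mylpf: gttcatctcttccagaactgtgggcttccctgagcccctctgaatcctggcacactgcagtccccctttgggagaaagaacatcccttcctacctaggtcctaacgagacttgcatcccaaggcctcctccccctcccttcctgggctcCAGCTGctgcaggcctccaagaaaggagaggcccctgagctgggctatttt
Actc1: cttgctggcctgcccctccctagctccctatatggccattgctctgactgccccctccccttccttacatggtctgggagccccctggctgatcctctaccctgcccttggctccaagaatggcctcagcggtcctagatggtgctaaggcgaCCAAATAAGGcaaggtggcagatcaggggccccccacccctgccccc
Chrna1 and Chrng each carried 3 E-boxes, of which 2 were CAGCTG, Mylpf carried 1 CAGCTG with 45 bases between it and the start, and Myog carried 2 E-boxes of other forms. Actc1 had no E-box in this window, and its CArG box had 37 bases between it and the start. All 5 genes rose.

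Of 26 tested genes of myoblast fusion, adhesion and the dystrophin complex 4 were higher and 0 lower (median log2 0.27, or 0.07 with dim signals raised). The muscle cadherin Cdh15 read 55.4 and 103 at E9.5 and 432 and 486 at E11.5, at least 4.16-fold higher (log2 2.60 ± 0.30, adjusted p = 0.000485). Ncam1, a cell adhesion molecule of muscle and neurons, read 517 and 744 at E9.5 and 1967 and 2080 at E11.5, 3.26-fold higher (log2 1.71 ± 0.18, adjusted p = 0.000375). Both were called in every omission, but the call of Ncam1 rested on 1 probe set: leaving out the probe sets that can detect several transcripts, the difference was −0.13 (adjusted p = 0.913). The dystrophin partner Sspn and the laminin chain of muscle basement membrane, Lama2, were at least 2.65-fold and 3.06-fold higher (adjusted p = 0.00657 and 0.0115). Both lost their calls without E9.5 replicate 1 (adjusted p 0.0596 and 0.106) and without E11.5 replicate 1 (0.0637 and 0.0873). The neural and early muscle cadherin Cdh2 read 2581 and 1946 at E9.5 and 1201 and 2064 at E11.5, with overlapping stages (log2 −0.51, adjusted p = 0.29). In the list of muscle metabolism 1 of 16 tested genes rose, the muscle surface enzyme Art1 (at least 1.84-fold, adjusted p = 0.0248, and 0.181 without E9.5 replicate 1), and the median was −0.04.

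The regulators of pharyngeal mesoderm did not move as a group. Of 18 tested, 2 were higher and 2 lower, and the median was −0.02. At an unadjusted limma p below 0.05 there were 6 positive and 5 negative differences, against 742 and 625 of the 7721 genes tested. Msc (musculin), a repressor of the basic helix-loop-helix family that marks head muscle precursors, read 698 and 1103 at E9.5 and 3557 and 3662 at E11.5, 4.11-fold higher (log2 2.04 ± 0.31, adjusted p = 0.00277, called in every omission). Smarcd3, a subunit of the BAF chromatin remodelling complex of heart and muscle, read 190 and 133 at E9.5 and 686 and 672 at E11.5, 4.27-fold higher (adjusted p = 0.00815, and 0.0529 without E9.5 replicate 2). Ebf2, an early B-cell factor family member, read 1894 and 1451 at E9.5 and 636 and 764 at E11.5, 2.38-fold lower (log2 −1.25 ± 0.22, adjusted p = 0.00735). The repressor Prdm1 was at least 2.50-fold lower (adjusted p = 0.0132). Ebf2 and Prdm1 lost their calls without E9.5 replicate 1 (adjusted p = 0.0732 and 0.113) and E11.5 replicate 1 (0.0536 and 0.0567), Prdm1 also without E11.5 replicate 2 (0.0762).

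Several of the best known head muscle regulators did not pass the adjusted threshold. Tbx1 read 975 and 1064 at E9.5 and 774 and 742 at E11.5, without overlap of the stages (log2 −0.43 ± 0.24, adjusted p = 0.398). Isl1, shared with the second heart field, read 2875 and 4933 at E9.5 and 3080 and 3502 at E11.5, with overlapping stages (log2 −0.20 ± 0.30, adjusted p = 0.806). Tcf21, the partner of Msc in branchial arch muscle, read 623 and 726 at E9.5 and 521 and 488 at E11.5. Its stages did not overlap either, but its standard error was large (log2 −0.42 ± 0.67, adjusted p = 0.815). Thus Msc rose while its related factor Tcf21 did not pass, although the difference between these 2 genes was not tested. Ebf1 overlapped between stages (log2 0.16 ± 0.24, adjusted p = 0.802). Lhx2 read 389 and 550 at E9.5 and 109 and 103 at E11.5, and the spleen and neural homeobox gene Tlx1 read 542 and 249 at E9.5 and 49.9 and 64.7 at E11.5. The stages did not overlap in either gene, but neither passed (log2 −2.12 ± 0.68, adjusted p = 0.109, and −2.69 ± 0.75, adjusted p = 0.0633).

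Genes that restrain the cell cycle rose in 3 cases, while no replication or mitosis gene passed. Of 19 tested genes of cell cycle exit and D cyclins 3 were higher and 0 lower (median log2 0.19). Cdkn1c, the p57 inhibitor of cyclin-dependent kinases and an imprinted gene, read 3454 and 4322 at E9.5 and 9307 and 10180 at E11.5, 2.52-fold higher (log2 1.33 ± 0.17, adjusted p = 0.000972). The retinoblastoma gene Rb1, which holds differentiated cells out of the cycle, read 874 and 820 at E9.5 and 1699 and 1923 at E11.5, 2.14-fold higher (log2 1.10 ± 0.16, adjusted p = 0.00201). Both were called in every omission. Cdkn1a, the p21 inhibitor, read 478 and 678 at E9.5 and 2073 and 1485 at E11.5, 3.08-fold higher (adjusted p = 0.0373), but it lost its call without any single head array of E9.5, E10.5 or E11.5 and without either trunk array of E10.5 (adjusted p 0.0525 to 0.217). The cyclins Ccnd1, Ccnd2 and Ccnd3 did not pass, with log2 differences of −0.09, −0.39 and 0.29 (adjusted p 0.0879 to 0.895).

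Of 51 tested genes of DNA replication and mitosis 0 were called by limma in either direction. At an unadjusted p below 0.05 there were 2 higher and 9 lower, against 742 and 625 of the 7721 genes tested. The differences ran from −0.76 to 1.59, of which 38 of 51 lay below 0, the median was −0.24 and the summed signal of the list was 122067 and 118719 at E9.5 and 113226 and 101971 at E11.5. Mki67, a marker of cycling cells, read 6152 and 6051 at E9.5 and 6795 and 3909 at E11.5, with overlapping stages (log2 −0.24, adjusted p = 0.593). Topoisomerase Top2a read 5659 and 5371 at E9.5 and 5071 and 5086 at E11.5 (log2 −0.12 ± 0.10, adjusted p = 0.627). The spindle factor Tpx2 had the most negative difference of the list, from 1583 and 1153 at E9.5 to 781 and 811 at E11.5 (log2 −0.76 ± 0.25, adjusted p = 0.118). The most positive was that of the thymidylate synthase gene Tyms, which read 35.4 and 35.4 at E9.5 and 145 and 78.5 at E11.5, so that 3 of its 4 values were dim (log2 1.59, adjusted p = 0.0648). A bulk sample does not tell fewer cells that express a gene from less RNA per cell, which holds for every gene described here.

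**Figure D3:**
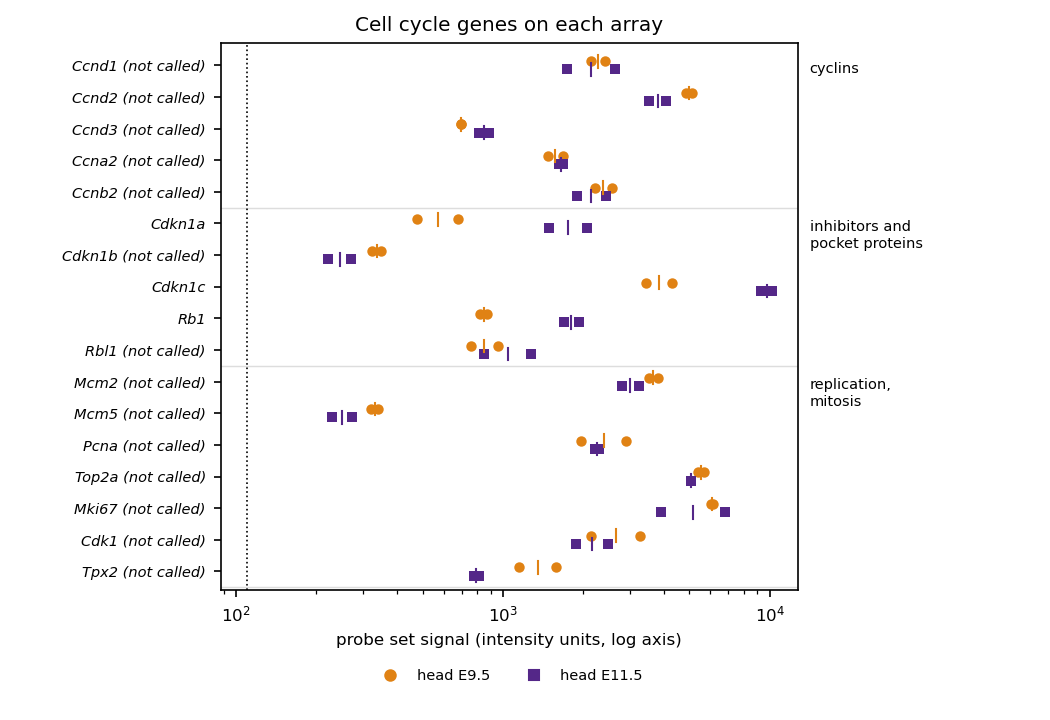
Probe set signal (log axis, intensity units) of cell cycle genes on each E9.5 array (circles) and E11.5 array (squares), with a short line at the geometric mean of each stage and a dotted line at the median signal of an array. Cdkn1a, Cdkn1c and Rb1 were higher at E11.5 with no overlap, while cyclins and replication or mitosis genes did not pass the adjusted threshold.

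Most tested genes of the early-embryo list fell. Like all lists here, it was written with earlier results of these data known, so its counts describe its members and test nothing. Of 13 tested, 0 were higher and 8 lower (2.03% of all genes were lower), with a median log2 difference of −1.02. Sall4, a zinc finger factor of pluripotent and early embryonic cells, read 2845 and 2647 at E9.5 and 359 and 283 at E11.5, 8.61-fold lower (log2 −3.11 ± 0.26, adjusted p = 5.77e-05), and it had the largest measured fold among the lower genes. Lin28a, an RNA-binding protein that blocks maturation of the let-7 microRNAs, read 459 and 325 at E9.5 and 37.1 and 29.3 at E11.5, at least 3.52-fold lower (adjusted p = 0.00451). Sox2, a factor of pluripotent, neural and epithelial progenitors, read 608 and 929 at E9.5 and 149 and 150 at E11.5, 5.03-fold lower (log2 −2.33 ± 0.25, adjusted p = 0.00038). These 3 were called in every omission. The other lower members were the retinoic acid binding proteins Crabp1 (at least 2.82-fold) and Crabp2 (3.12-fold), the de novo DNA methyltransferase Dnmt3b (2.12-fold), and the RNA-binding proteins Igf2bp1 and Igf2bp3 (2.03- and 1.53-fold), with adjusted p from 0.00825 to 0.041. Each of these 5 lost its call in at least 1 omission, with 3 of the 8 calls left without E11.5 replicate 2, where the highest adjusted p was 0.22.

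Of 20 tested imprinted genes 3 were higher and 0 lower (median log2 0.14): Cdkn1c, the noncoding RNA gene Meg3 (1.57-fold, adjusted p = 0.0366) and the growth factor Igf2 (1.504-fold, adjusted p = 0.0376). Igf2 read 3855 and 3763 at E9.5 and 6647 and 4934 at E11.5. In the list of the insulin-like growth factor axis, which shares Igf2, 3 of 14 were higher and 0 lower: Igf2, the binding protein Igfbp3 (2.49-fold, adjusted p = 0.0167) and the receptor substrate Irs1 (1.65-fold, adjusted p = 0.0136). Apart from Cdkn1c each of these lost its call when single head arrays were left out. Without E9.5 replicate 2 none of Meg3, Igf2, Igfbp3 and Irs1 kept it (adjusted p up to 0.13), and the adjusted p of Igf2 was 0.234 without E11.5 replicate 1 and that of Meg3 0.18 without E11.5 replicate 2. The most negative members of the 2 lists did not pass: Phlda2, an imprinted growth regulator, had a log2 difference of −1.99 ± 0.60 (adjusted p = 0.0891) and Kazald1 of −1.88 (adjusted p = 0.203).

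Epithelial transcripts gave the most lower genes of any list. Of 26 tested genes of epithelium, ectoderm and endoderm 0 were higher and 11 lower, the median log2 difference was −1.55 (−0.75 with dim signals raised), and the summed signal was 15845 and 15064 at E9.5 against 5346 and 5281 at E11.5. Keratin 8 (Krt8), of simple epithelia, read 1188 and 1167 at E9.5 and 116 and 88.0 at E11.5, at least 10.4-fold lower (log2 −3.54 ± 0.30, adjusted p = 5.77e-05). Its partner keratin Krt18 read 799 and 812 at E9.5 and 151 and 76.7 at E11.5, at least 6.25-fold lower (adjusted p = 0.000972). The adhesion molecule Epcam read 1167 and 1247 at E9.5 and 244 and 284 at E11.5, 4.58-fold lower (log2 −2.20 ± 0.20, adjusted p = 0.000112). The keratin pair thus reached the array median at E11.5 while Epcam stayed above it. The epithelial splicing regulator Esrp1 was 5.51-fold lower, the desmosome genes Dsg2 and Dsp 3.68- and 3.46-fold lower, E-cadherin Cdh1 3.22-fold, the protease inhibitor Spint2 3.10-fold, the claudins Cldn7 and Cldn6 3.92- and at least 2.81-fold, and keratin Krt19 at least 1.28-fold (adjusted p 0.00213 to 0.027). Krt8, Krt18, Epcam, Esrp1, Dsg2 and Dsp were called in every omission, and the other 5 lost their calls without E9.5 replicate 1 (adjusted p up to 0.142). The call of Dsp also ended when the probe sets of the gene were averaged (adjusted p = 0.143).

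The fall did not extend to every epithelial gene. Trp63, the regulator of stratified epithelium, read 730 and 760 at E9.5 and 478 and 516 at E11.5 (log2 −0.59 ± 0.40, adjusted p = 0.499). Outside the list, named for the size of their folds, Pkp2, a desmosome plaque protein, was 4.62-fold lower (1454 and 1375 at E9.5, 297 and 315 at E11.5, adjusted p = 0.000117) and the epidermal kinase Ripk4 at least 3.63-fold lower (adjusted p = 0.0137, and 0.0979 without E9.5 replicate 1). Epithelial cells do not belong to the muscle lineage, and whether fewer of them were in the sorted E11.5 cells was not tested.

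Most tested neural genes did not pass. Of 13 tested genes of neural progenitors, forebrain, midbrain and eye 1 was higher and 3 lower, with a median of −0.88 (−0.75 with dim signals raised). The Notch effector Hes5 read 1335 and 999 at E9.5 and 64.9 and 194 at E11.5, at least 7.92-fold lower (adjusted p = 0.0157), and the fore- and midbrain homeobox gene Otx2 read 324 and 468 at E9.5 and 13.8 and 3.62 at E11.5, at least 3.54-fold lower (adjusted p = 0.0203). Sox2, given above, was the third. The intermediate filament Nes, found in neural and muscle progenitors, was 2.17-fold higher (adjusted p = 0.0358). Hes5 lost its call without E9.5 replicate 1 (0.112) and E11.5 replicate 1 (0.117), Otx2 without either E9.5 array and without E11.5 replicate 2 (0.126 to 0.164), and Nes without any head array of the 2 stages (up to 0.135).

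Of 28 tested neuronal genes 4 were higher and 2 lower, with a median of 0.52 (0.46 with dim signals raised). The 2 lower genes were the neurogenic factors Neurod1, which read 2287 and 2822 at E9.5 and 502 and 828 at E11.5 (3.94-fold, adjusted p = 0.00213, called in every omission), and Neurog1 (at least 3.27-fold, adjusted p = 0.0105). The 4 higher genes were the stathmins Stmn3 (5.07-fold) and Stmn4 (at least 6.60-fold), the tau gene Mapt (at least 2.37-fold) and peripherin, Prph (at least 2.64-fold), with adjusted p from 0.00556 to 0.0197. Stmn3 read 342 and 1396 at E9.5 and 2682 and 4569 at E11.5, so that replicate 2 was the higher array at both stages. Without E9.5 replicate 1 and without E11.5 replicate 2 only Neurod1 kept its call, with adjusted p up to 0.15 and 0.178. The summed signal of the list was 30017 and 38915 at E9.5 and 37212 and 50767 at E11.5, with overlapping stages, and the neuronal tubulin Tubb3 read 226 and 355 at E9.5 and 281 and 386 at E11.5 (log2 0.22, adjusted p = 0.889).

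In the list of neural crest and ectomesenchyme 3 of 20 tested genes were higher and 2 lower (median −0.24). The neuregulin receptor Erbb3, of Schwann cell precursors and of migrating muscle precursors, read 885 and 662 at E9.5 and 3171 and 3669 at E11.5, 4.46-fold higher (log2 2.16 ± 0.24, adjusted p = 0.00042, called in every omission). The neurotrophin receptor Ngfr read 80.1 and 148 at E9.5 and 337 and 536 at E11.5, at least 3.33-fold higher (adjusted p = 0.00694). Sox10, the defining factor of crest and glia, lay close to the array median on all 4 arrays, at 117 and 81.4 at E9.5 and 110 and 73.0 at E11.5 (adjusted p = 0.924). The mesenchymal homeobox genes Prrx1 and Prrx2 went opposite ways, 2.13-fold higher (adjusted p = 0.0416) and 2.59-fold lower (adjusted p = 0.0232), and Crabp1, also of the early-embryo list, was the second lower gene. Ngfr, Prrx1, Prrx2 and Crabp1 each lost the call in at least 2 single-array omissions, the adjusted p of Prrx1 reaching 0.244 without E11.5 replicate 1.

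**Figure D4:**
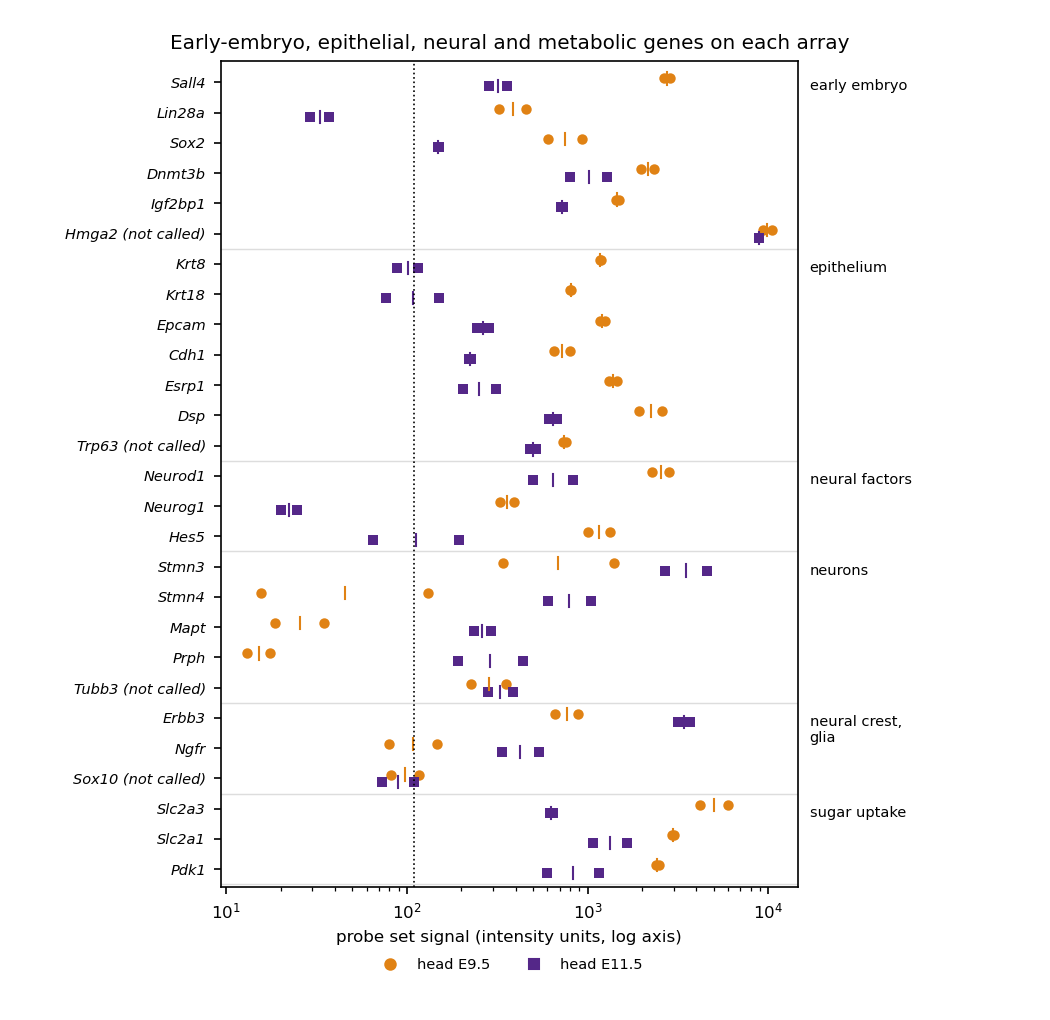
Probe set signal (log axis, intensity units) of early-embryo, epithelial, neural, crest and sugar metabolism genes on each E9.5 array (circles) and E11.5 array (squares), with a short line at the geometric mean of each stage and a dotted line at the median signal of an array. The genes shown are examples; Sall4, Krt8 and Neurod1 lay lower at E11.5 and Stmn3 and Erbb3 higher, and genes marked "not called" did not pass the adjusted threshold.

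Of 29 tested endothelial genes 0 were higher and 1 lower, the early endothelial factor Etv2 (at least 1.70-fold, adjusted p = 0.0233, and 0.161 without E11.5 replicate 2), and the median was −0.37. The VEGF receptor Kdr read 919 and 1261 at E9.5 and 789 and 461 at E11.5 (adjusted p = 0.296). The summed endothelial signal was 8921 and 13157 at E9.5 and 9564 and 6016 at E11.5, with overlapping stages. Of 10 erythroid genes 0 were higher and 1 lower, the embryonic globin Hba-x (at least 3.08-fold, adjusted p = 0.032, and 0.148 without E11.5 replicate 2). The embryonic globin Hbb-y read 14870 and 12920 at E9.5 and 13440 and 7694 at E11.5, so red cell transcripts were plentiful on all 4 arrays, and E11.5 replicate 2 was the lowest. Of 9 tested macrophage and leukocyte genes 2 were higher and 0 lower, and all 9 differences were positive (median 1.40, or 0.46 with dim signals raised), although 4 of the 9 genes were dim on both E9.5 arrays. The called genes were the protease Ctss (27.3 and 41.1 at E9.5, 299 and 194 at E11.5, at least 2.19-fold, adjusted p = 0.00154, called in every omission) and the macrophage receptor Adgre1 (at least 2.67-fold, adjusted p = 0.0174, and above 0.05 without any single head array of the 2 stages, up to 0.122). The summed leukocyte signal was 1243 and 1315 at E9.5 and 3240 and 2164 at E11.5. Of 9 cardiac genes the 2 higher ones, Actc1 and Tnnc1, also belong to the thin filament list, and Nkx2-5 read 120 and 76.7 at E9.5 and 267 and 260 at E11.5 without passing (adjusted p = 0.15).

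Some regulators known from somites and limb muscle precursors rose. Of 16 tested, 9 were dim on both E9.5 arrays, and 5 were higher and 0 lower, with a median of 0.83 that became 0.08 with dim signals raised to the array median. Lbx1, the homeobox gene of migrating muscle precursors, read 8.43 and 36.8 at E9.5 and 403 and 496 at E11.5, at least 4.07-fold higher (log2 4.67 ± 0.63, adjusted p = 0.00133). Meox2, a homeobox gene of somite and limb muscle, read 219 and 188 at E9.5 and 790 and 535 at E11.5, 3.20-fold higher (log2 1.68 ± 0.22, adjusted p = 0.000972). Both were called in every omission. Dmrt2, of the dermomyotome, was called as well (adjusted p = 0.00382), also in every omission. It was dim on all 4 arrays, so no fold is given, and its adjusted p was 0.348 when the 4 head arrays of the 2 stages were fitted alone. Meox1 (at least 2.09-fold) and the chemokine receptor Cxcr4 (2.07-fold) were also higher (adjusted p = 0.0321 and 0.0293), and both lost their calls without single arrays (adjusted p up to 0.181 without E9.5 replicate 2 and 0.167 without E9.5 replicate 1). Of 18 tested Hox genes 13 were dim on both E9.5 arrays and 13 on both E11.5 arrays. Hoxd1 (26.0 and 38.2 at E9.5, 219 and 209 at E11.5, at least 1.94-fold higher, adjusted p = 0.00038) was called in every omission. Hoxb1 was lower but dim on all 4 arrays (adjusted p = 0.0137, and 0.0769 without E11.5 replicate 2).

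The FGF, TGF-beta, Notch, Wnt, Hedgehog and retinoic acid lists had between 0 and 3 called members each, and the share over all genes was 4.78%. Of 13 tested FGF pathway genes 2 were higher and 1 lower. The receptor Fgfr4, which marks differentiating myoblasts, read 92.3 and 28.9 at E9.5 and 613 and 728 at E11.5, at least 6.08-fold higher (log2 3.69 ± 0.41, adjusted p = 0.00042, called in every omission). The intracellular FGF homologue Fgf13 was 2.83-fold higher (adjusted p = 0.0166) and the feedback phosphatase Dusp6 1.99-fold lower (adjusted p = 0.0417). These 2 lost their calls without E11.5 replicate 2 (0.111 and 0.192), and their highest adjusted p were 0.136 for Fgf13 without E9.5 replicate 1 and 0.226 for Dusp6 without E9.5 replicate 2. Of 28 genes of the BMP, activin and TGF-beta pathways 1 was higher, the ligand Tgfb2, which read 790 and 631 at E9.5 and 2424 and 2395 at E11.5 (3.41-fold, adjusted p = 0.00042, called in every omission). Of 23 Notch genes 1 was higher and 2 lower. Dner, a neuronal Notch ligand, read 104 and 150 at E9.5 and 623 and 1021 at E11.5 (at least 6.21-fold, adjusted p = 0.000972, called in every omission), while Hes5 and the ligand Dll3 fell, Dll3 by at least 1.04-fold (adjusted p = 0.00735, and 0.0525 without E9.5 replicate 1).

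Of 34 tested Wnt genes 0 were called by limma (4 higher and 5 lower at an unadjusted p below 0.05, median 0.03), and likewise 0 of 24 immediate early and heat shock genes (2 higher and 3 lower at an unadjusted p below 0.05, median 0.03), a list included because dissociation can induce them. Of 11 Hedgehog genes 1 was higher, the co-receptor Gas1 (1.80-fold, adjusted p = 0.0176, and 0.125 without E9.5 replicate 1). Of 14 retinoic acid genes 3 were lower, Crabp1, Crabp2 and the nuclear receptor Nr2f1 (1.66-fold, adjusted p = 0.0376, and 0.249 without E11.5 replicate 2). Of 31 guidance genes 3 were higher and 2 lower. The chemokine Cxcl12 read 2004 and 1908 at E9.5 and 816 and 729 at E11.5, 2.54-fold lower (log2 −1.34 ± 0.18, adjusted p = 0.00137, called in every omission), whereas its receptors Cxcr4 and Ackr3 were 2.07- and 3.01-fold higher (adjusted p = 0.0293 and 0.0194). The ligand and its receptors therefore differed in opposite directions, but the receptors kept their calls in fewer omissions: Ackr3 had an adjusted p of 0.147 without E11.5 replicate 2.

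Transcripts of glucose transporters fell. Of 22 tested genes of the hypoxia response and glycolysis 1 was higher and 5 lower (median −0.11). Slc2a3, the GLUT3 glucose transporter, read 5961 and 4172 at E9.5 and 642 and 618 at E11.5, 7.92-fold lower (log2 −2.99 ± 0.28, adjusted p = 0.000116, called in every omission). The GLUT1 transporter Slc2a1 read 2940 and 3002 at E9.5 and 1647 and 1075 at E11.5, 2.23-fold lower (adjusted p = 0.0115). Pdk1, the kinase that turns off pyruvate dehydrogenase, was 2.94-fold lower, the glycolytic enzyme Pfkl 2.27-fold and the collagen hydroxylase P4ha1 1.86-fold (adjusted p 0.0157 to 0.0285), and Egln3, an oxygen-sensing hydroxylase, was 1.98-fold higher (adjusted p = 0.0174). Without E9.5 replicate 1 only Slc2a3 kept its call, and the highest adjusted p among the other 5 was then 0.153. The highest over all single omissions was 0.171, for P4ha1 without E11.5 replicate 1.

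Connective tissue and matrix genes went both ways, 5 higher and 4 lower of 53 tested (median 0.16). Ogn (osteoglycin), a small proteoglycan, read 13.5 and 17.2 at E9.5 and 461 and 471 at E11.5, at least 4.24-fold higher (log2 4.93 ± 0.57, adjusted p = 0.000473). Has2, the hyaluronan synthase of embryonic mesenchyme, read 1413 and 704 at E9.5 and 189 and 292 at E11.5, 4.24-fold lower (log2 −2.09 ± 0.34, adjusted p = 0.00448). These 2 were the matrix genes called in every omission. Collagen VI chain Col6a3 and the crosslinking enzyme Lox were 4.16- and 3.996-fold higher (adjusted p = 0.014 for both), and lumican, Lum, was 2.96-fold lower (adjusted p = 0.03), with adjusted p up to 0.0805, 0.0934 and 0.176 when 1 head array was left out. In the cartilage and tendon list 1 of 8 was lower, the hyaluronan link protein Hapln1, which read 749 and 647 at E9.5 and 69.2 and 42.6 at E11.5 (at least 6.34-fold, log2 −3.68 ± 0.31, adjusted p = 5.77e-05, called in every omission). The synthase of hyaluronan and its link protein thus both fell.

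**Figure D5:**
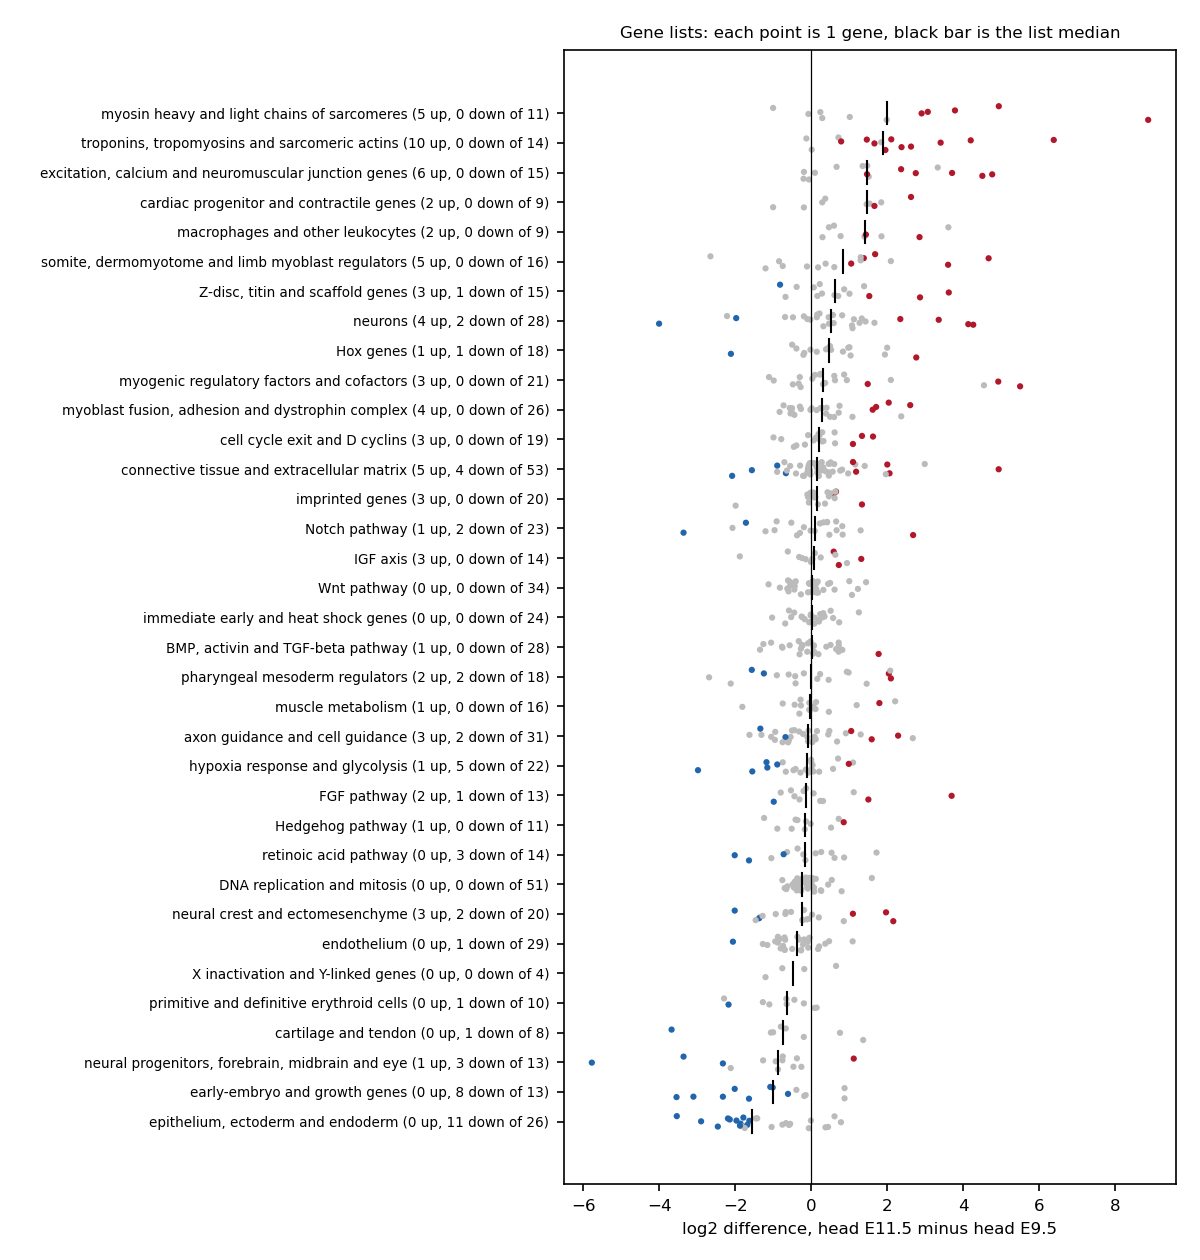
Log2 difference between E11.5 and E9.5 of each tested gene (point) in 35 gene lists, ordered by the median of the list (black bar); red points were higher and blue points lower at the adjusted threshold. Myosins and thin filament genes stood at the top, with medians of 1.98 and 1.89, and epithelial genes at the bottom, with a median of −1.55; differences of dim genes are not measured folds.

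Genes outside these lists were among the most changed. Fap, a surface protease of mesenchymal cells, read 43.0 and 68.1 at E9.5 and 887 and 703 at E11.5, at least 7.18-fold higher, with the same adjusted p as Myod1 (log2 3.87 ± 0.24, adjusted p = 6.91e-06). Ank1, the ankyrin whose small muscle forms anchor the sarcoplasmic reticulum, read 148 and 141 at E9.5 and 1611 and 1304 at E11.5, 10.03-fold higher (log2 3.33 ± 0.25, adjusted p = 1.8e-05). The kinase Nrk read 529 and 490 at E9.5 and 3738 and 2877 at E11.5, 6.44-fold higher (adjusted p = 1.8e-05). In these 3 genes the 2 arrays of a stage lay close together relative to the distance between the stages.

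Further genes with large measured rises were the p53 target Rprm (6.29-fold), the vesicle transport gene Sytl2 (6.11-fold), the leucine-rich repeat gene Lrrn1 (4.92-fold), Moxd1, a monooxygenase relative (4.52-fold), and the G protein regulator Rgs16 (4.24-fold), with adjusted p from 0.000485 to 0.00401. The zinc finger factor Bcl11a rose at least 6.61-fold (adjusted p = 0.000502). Lrrn1 read 494 and 1356 at E9.5 and 3913 and 4154 at E11.5, so its E9.5 arrays differed from each other by more than its E11.5 arrays did. On the other side, Pawr, a pro-apoptotic regulator, read 1948 and 1615 at E9.5 and 319 and 323 at E11.5, 5.53-fold lower (adjusted p = 0.00038). The selenium-dependent peroxidase Gpx3 was 4.68-fold lower, the glycine cleavage enzyme Gldc 3.85-fold, the pantetheinase Vnn1 at least 6.31-fold and the collectin Colec12 at least 4.19-fold (adjusted p 0.000375 to 0.00268). All genes of this and the preceding paragraph were called in every omission.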

How the data were processed

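RNA was extracted from sorted YFP+ cells with QIAzol, amplified and hybridised as biotin-labelled cRNA to Affymetrix mouse arrays, per the labels' protocols. The deposited values are intensity signals, for which the submitters' processing notes name MAS5 and Affymetrix Expression Console; no source used here gives any further normalization. Signals were set to log2 with no further normalization. Of 22690 probe sets, 64 controls and those annotated to several genes (691) or none (1555) were left out. A probe set entered if at least 2 of 12 arrays lay above their median, and the probe set of highest mean was kept per gene, which gave 7721 genes. limma 3.58.1 (R 4.3.3) fitted a mean for each of the 6 groups with an intensity trend, and p-values were adjusted by Benjamini-Hochberg over all genes at 0.05. The procedure was also run on data simulated from the fitted model with independent normal noise. Such data cannot show how it handles outlying arrays or correlated genes. The number of arrays limits the precision.

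Replicate numbers were not used to pair the arrays. Deviations of same-numbered head arrays of E9.5 and E11.5 correlated with r = −0.124, and over all pairs of groups r ran from −0.299 to 0.173. With 2 arrays per group, such correlations across genes cannot decide whether same-numbered arrays were handled together. Genes named are those with the largest measured or bound folds, up to 4 members of smallest p per list, fixed head muscle regulators and all tested members of the head muscle lists where described; other genes named are examples chosen after their values were seen. The comparison and gene lists were chosen with earlier results of these data known. Promoter sequences came from RefSeq.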

Additional observations from a re-analysis of the deposited data

How the results depend on the processing

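The number of genes called depended most on which arrays were fitted. With the 4 head arrays of E9.5 and E11.5 alone it was 213 in place of 369 (126 higher, 87 lower), and with the 6 head arrays 243 (142 higher, 101 lower). Without replicate 1 of both head and trunk at E10.5 it was 279 (163 higher, 116 lower). Leaving out 1 array at a time gave 173 to 395 calls, 105 to 236 of them higher and 68 to 161 lower, with 163 to 307 called genes at least 2-fold apart. The other planned settings (quantile or median scaling, log2(signal + 16), filters, choice of probe sets, and limma without trend or with robust variance) gave 289 to 412 calls. Among the named genes that were called, only Ncam1 turned direction. Its log2 difference was −0.13 (adjusted p = 0.913) when probe sets that can detect several transcripts were left out. Turns of direction were not counted for genes that were not called, and some with overlapping stages, such as Mki67, changed sign when a single array was dropped.

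With the replicate number as a block 347 genes were called (198 higher, 149 lower), of which 332 were among the 369. The main fit did not assume that same-numbered arrays belong together. With the numbers crossed between the 2 stages, an alternative chosen after seeing the data, 358 genes were called (205 higher, 153 lower).

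Signal over background limits the genes that were dim at a stage, for which a lower bound of the fold is all that can be given. Of the genes tested, 211 were dim on all 4 arrays, and 4 of these were called. With 2 arrays per stage, a difference that missed the threshold is not shown to be absent.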
